A study of Mus musculus with 17 samples.

Results

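The ubiquitin-specific protease genes (Usp genes) were followed in the hippocampus of mice kept awake for 5 h and of mice left undisturbed. Members were all probe sets that carried exactly 1 gene symbol in the platform annotation, that symbol being Usp followed by a digit. This gave 128 probe sets for 51 genes, out of 34945 probe sets with 1 symbol for 18193 genes. Each gene was read through its brightest probe set, a probe set being a group of short probes for 1 transcript, and the 77 further probe sets served as a check. Another 4 probe sets that list a Usp symbol together with a second gene were left out. Not all members encode active proteases. Usp6nl encodes a GTPase-activating protein of endosomal Rab proteins, and Usp46os2 is a transcript from the strand opposite Usp46. The Usp39 protein lacks protease activity.

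All animals were male C57BL/6J mice, given as 2 months old in the sample labels and as 2 to 4 months in the growth protocol, housed singly in 12 h of light and 12 h of dark, with no genetic change. Every mouse was handled daily for 6 days beforehand. From about lights-on 8 mice were kept awake by gentle handling in the home cage, while 9 mice stayed undisturbed, and the hippocampus was dissected straight afterwards, so being awake and being handled during those hours cannot be told apart. The RNA of each animal went onto its own Affymetrix array, 17 in all, and the comparison asks which transcripts differ after sleep loss. Values are log2 signals, and every difference is sleep-deprived minus undisturbed.

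Ubiquitin is a small protein that is attached to other proteins, in chains that can mark them for destruction by the proteasome or as single tags that change their traffic and binding. Ubiquitin-specific proteases are the largest family of enzymes that remove it. They cut with a cysteine in the active site, and each acts on its own substrates, from histones to receptors at the synapse. Usp2 is known in addition as an output of the circadian clock whose protein removes ubiquitin from clock components.

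Before the results, the tissue and the arrays were checked. Markers of hippocampal neurons had mean signals of 10.5 to 10.7 on single arrays, and none of these 10 genes passed the test. Markers of the choroid plexus, a secretory tissue beside the hippocampus, split the arrays: their mean over 10 genes was between 6.86 and 7.44 on 5 arrays (sleep-deprived animals 3, 5 and 7, undisturbed animals 4 and 9) and at most 6.17 on the other 12. None of the 10 passed, and the marker mean was 6.42 ± 0.86 (SD, n = 8) in sleep-deprived and 6.10 ± 0.57 (SD, n = 9) in undisturbed animals. Sleep-deprived animal 5 also had the widest 3'-to-5' gap in the array's RNA quality probe sets, 0.417 against at most 0.302 elsewhere. Of 4 measured endothelial markers Slco1a4 fell (-0.32, SE 0.063, limma adjusted p = 0.0057), with groups that did not overlap. The other 3 did not pass, Cldn5 at -0.17 (adjusted p = 0.16), Pecam1 at 0.052 and Flt1 at 0.021, and the mean of the 4 ran from 8.41 to 8.58 in sleep-deprived and from 8.43 to 8.77 in undisturbed animals. No gene passed in the lists for neurons in general, astrocytes, oligodendrocytes, microglia, thalamus and blood. The part of any of these in the results was not tested. Calls are also given for the 12 arrays with few choroid plexus transcripts.

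After sleep deprivation Usp2, Usp24 and Usp34 fell and Usp31 rose, while 47 of the 51 genes did not pass the test. The largest change was that of Usp2, which was 1.44-fold lower. The other 3 changed by 1.11-fold to 1.14-fold, and 50 of the 51 genes differed by less than 1.2-fold. A gene passed at an adjusted p under 0.05 in limma, with Benjamini-Hochberg adjustment over all 18193 genes. By that rule 5.88% of the Usp genes were lower, against a background of 2.73% of all genes, and 1.96% were higher, against 1.25% (3.97% of all genes in either direction). Most Usp genes had a mean signal over 7, where lower calls were more frequent. Among such genes 7.14% of 42 Usp genes and 4.31% of all 9901 were lower. In the same range 1 Usp gene and 170 of all were higher. The background split between lower and higher calls moved with the scaling: 68.6% of called genes were lower as deposited, 53.8% after quantile normalization, 56.0% after cyclic loess and 81.1% after centring each array on its median. In the 12 arrays with few choroid plexus transcripts Usp2 alone passed among Usp genes. These leave out 3 sleep-deprived and 2 undisturbed animals, and 64 genes in all were lower and 49 higher there. With all arrays 496 genes were lower and 227 higher. Whether calls were lost through choroid plexus content or through fewer arrays was not tested.

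**Figure D1:**
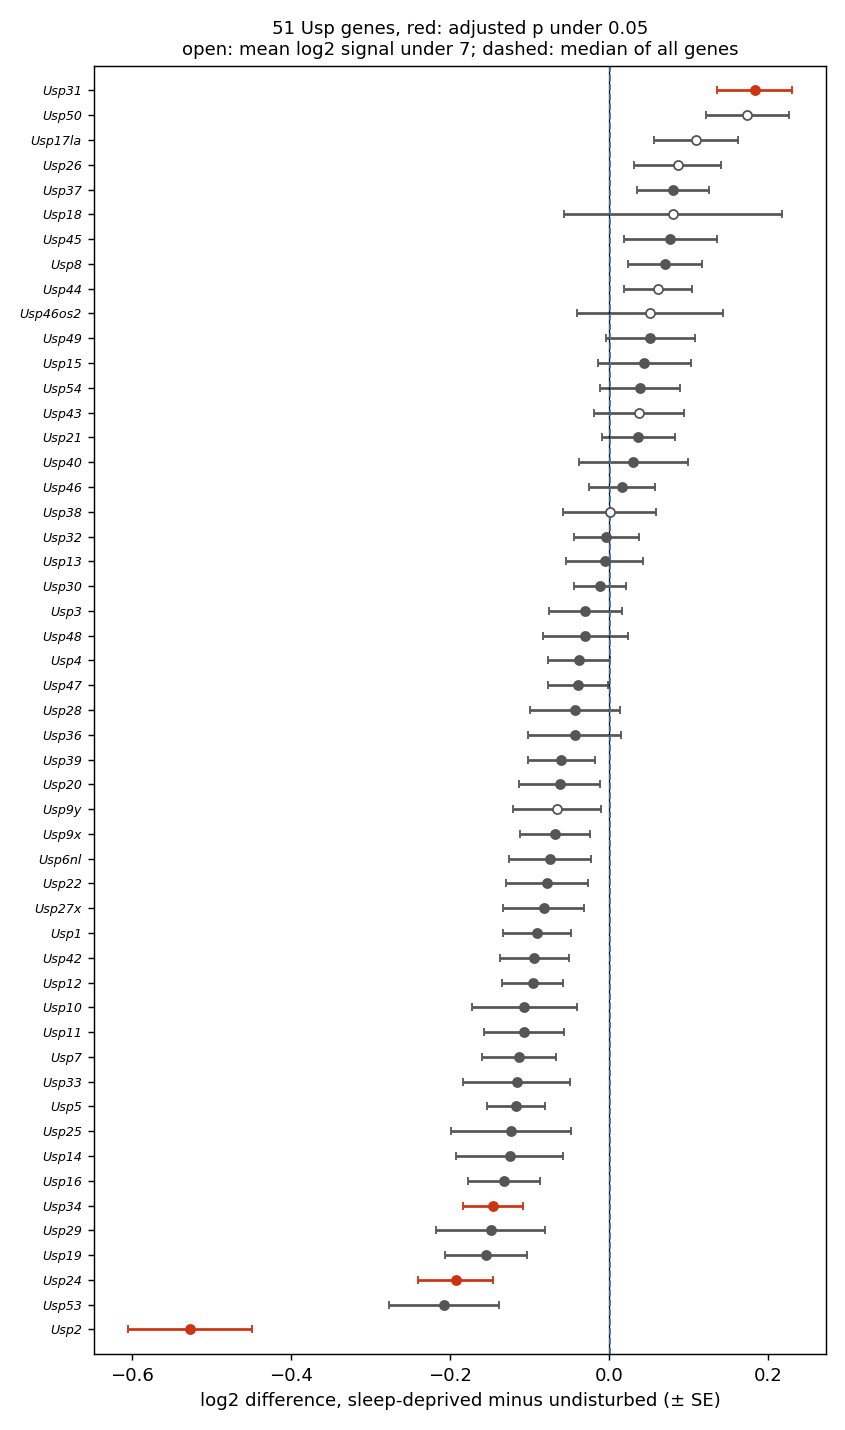
Log2 difference between sleep-deprived (n = 8) and undisturbed (n = 9) animals for the 51 Usp genes, 1 row per gene, with bars of 1 moderated standard error; red marks an adjusted p under 0.05 and open circles a mean signal under 7. Usp2 stands at -0.53, the 3 other red genes lie between -0.19 and 0.18, and the dashed line, the median of all genes at 0.0016, nearly covers the line at 0.

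Usp2 cuts ubiquitin from the clock proteins PER1 and BMAL1 and from the p53 regulator MDM2. Its signal was 9.73, 9.90 and 10.3 (lowest, median and highest) in the 9 undisturbed animals. In the 8 sleep-deprived animals it was 9.13, 9.42 and 9.64. Every sleep-deprived animal lay below every undisturbed one, which held for 2 of the 51 Usp genes (3.92%) and for 0.555% of all genes (0.731% had groups apart in either direction). Among genes with a mean over 7 the groups were apart in 2 of 42 Usp genes and in 126 of all 9901. Usp2 fell from 9.96 ± 0.20 (SD, n = 9) to 9.43 ± 0.16 (SD, n = 8), a log2 difference of -0.53 (SE 0.078, adjusted p = 0.00047 in limma). The two-sided exact permutation test over the 24310 assignments of arrays gave an unadjusted p = 4.1e-05, the smallest it can give.

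The second Usp2 probe set, had a mean of 9.70 against 9.71. Its 9 undisturbed values ran from 9.75 to 10.1 and its 8 sleep-deprived values from 9.24 to 9.63, again with no overlap. It fell by 0.37 on the log2 scale (limma, adjusted p over all probe sets = 0.0012). Both probe sets were annotated with the same transcript record, and their differences were not shown to differ from each other (0.15, SE 0.054, adjusted p = 0.17). Usp2 was called in all 15 other settings of scaling, probe set, filter, model and test (adjusted p at most 0.011) and without any 1 array. It was -0.51 (adjusted p = 0.012) in the 12 arrays with few choroid plexus transcripts and -0.48 without sleep-deprived animal 5, which held the lowest value.

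**Figure D2:**
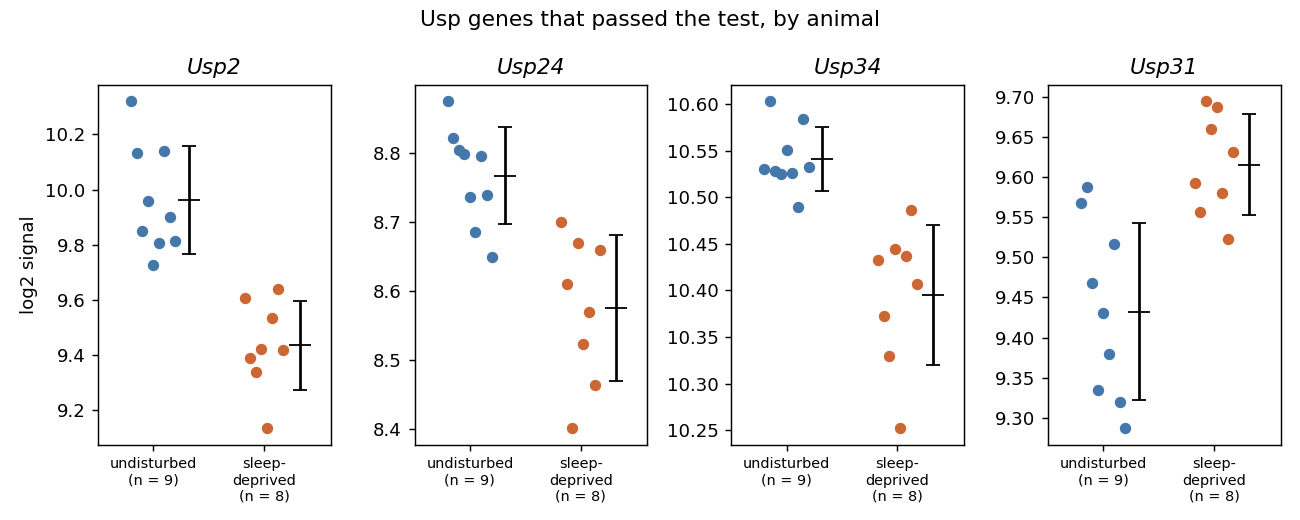
Log2 signal of Usp2, Usp24, Usp34 and Usp31 in each animal (points; 9 undisturbed, blue, and 8 sleep-deprived, orange), with the group mean and SD as bars; each panel has its own vertical scale that does not start at 0. The groups are apart for Usp2 and Usp34, and they overlap for Usp24 and Usp31.

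Usp24 and Usp34 encode very large members of the family, and Usp34 is known for acting on axin in Wnt signalling. Usp24 ran over 8.65, 8.80 and 8.88 (lowest, median and highest) in undisturbed and 8.40, 8.59 and 8.70 in sleep-deprived animals. All 8 sleep-deprived animals lay below the undisturbed mean, with an overlap at the edge of the groups. Usp24 fell by 0.19 (SE 0.047, limma adjusted p = 0.022, unadjusted two-sided exact permutation p = 0.00045). Its probe sets with means of 8.04 and 7.63 had differences of -0.17 and -0.16 that did not pass (adjusted p over all probe sets = 0.21 and 0.15), and the dimmest, at 4.86, had 0.057. Averaging its 4 probe sets ended the Usp24 call (-0.12, adjusted p = 0.099), as it was with the most variable one (adjusted p = 0.19) and in the 12 arrays with few choroid plexus transcripts (-0.14, adjusted p = 0.28).

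Usp34 ran over 10.49, 10.53 and 10.60 in undisturbed and over 10.25, 10.42 and 10.49 in sleep-deprived animals. The groups touched without overlapping, the lowest undisturbed animal being just above the highest sleep-deprived one. Usp34 fell by 0.15 (SE 0.038, limma adjusted p = 0.032). The two-sided exact permutation test gave an unadjusted p = 4.1e-05, the smallest it can give. This value reflects that the groups did not overlap and not the size of the gap between them. Its second probe set also had groups that did not overlap (8.88 to 9.32 against 9.35 to 9.56) and a difference of -0.20, and over all probe sets both just missed (adjusted p = 0.051 and 0.058). The Usp34 call was lost after quantile normalization (-0.11, adjusted p = 0.10), cyclic loess (-0.11, adjusted p = 0.091), with the choroid plexus markers as a covariate (-0.14, adjusted p = 0.058), with the most variable probe set (-0.21, adjusted p = 0.22) and in the 12 arrays (-0.13, adjusted p = 0.28). It was also lost without undisturbed animal 2 or 8 or sleep-deprived animal 3 or 5 (adjusted p = 0.053, 0.058, 0.064 and 0.064).

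Usp31, a little-studied member reported in inflammatory signalling, was the 1 Usp gene that rose. In undisturbed animals it ran over 9.29, 9.43 and 9.59, and in sleep-deprived animals over 9.52, 9.61 and 9.69. All 8 sleep-deprived animals lay above the undisturbed mean, while the highest 2 undisturbed animals lay within their range. Usp31 rose by 0.18 (SE 0.047, limma adjusted p = 0.031, unadjusted two-sided exact permutation p = 0.0016). Its 3 further probe sets had differences of 0.11 to 0.12 that did not pass. The call was lost after median centring (0.17, adjusted p = 0.054), with the mean of its probe sets (0.13, adjusted p = 0.14), with the most variable one (0.11, adjusted p = 0.50) and in the 12 arrays (0.14, adjusted p = 0.36). It was lost as well without undisturbed animal 4, 6, 8 or 9 or sleep-deprived animal 3 or 5 (adjusted p = 0.054 to 0.064).

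The sequences before the start sites of Usp2, Usp31 and Usp34 are shown because these genes carried the largest decrease, the increase and a second decrease with separate groups. They are the 250 bases upstream of a RefSeq start in build GRCm38.p6, 5′ to 3′ on the gene's strand, for Usp2 at chr9:44084670-44084919 (plus strand), for Usp31 at chr7:121707443-121707692 (minus strand) and for Usp34 at chr11:23306645-23306894 (plus strand). All 3 windows lie before a start inside the annotated gene and not before its outermost start, for Usp31 by a few bases. Capitals mark matches on either strand to the motifs searched.
Usp2: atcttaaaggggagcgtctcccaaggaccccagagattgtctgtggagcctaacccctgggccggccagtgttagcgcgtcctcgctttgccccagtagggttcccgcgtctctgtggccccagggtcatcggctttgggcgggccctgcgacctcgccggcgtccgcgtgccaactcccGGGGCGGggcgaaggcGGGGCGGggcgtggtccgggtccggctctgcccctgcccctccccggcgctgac
Usp31: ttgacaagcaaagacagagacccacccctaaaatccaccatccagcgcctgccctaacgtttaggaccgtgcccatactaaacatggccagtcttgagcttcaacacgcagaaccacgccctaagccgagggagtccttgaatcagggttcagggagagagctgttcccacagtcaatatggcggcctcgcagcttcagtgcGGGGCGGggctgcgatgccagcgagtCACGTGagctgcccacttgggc
Usp34: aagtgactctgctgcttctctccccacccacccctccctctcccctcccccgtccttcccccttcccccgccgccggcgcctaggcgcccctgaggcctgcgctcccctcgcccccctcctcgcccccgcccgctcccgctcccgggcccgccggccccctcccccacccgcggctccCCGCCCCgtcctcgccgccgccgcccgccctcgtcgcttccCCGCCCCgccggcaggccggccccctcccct

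Of the 51 Usp genes 39 had such a window, 40 windows in all, and they were set beside 32851 windows of all genes. The motifs, searched on both strands, were the E-box CACGTG bound by the clock's CLOCK and BMAL1, the D-box TTATGNAA bound by DBP and NFIL3, the cAMP response element TGACGTCA, the ETS motif CCGGAAGT and the GC box GGGGCGG. Usp2 and Usp34 each held 2 GC boxes. At least 1 GC box was present in 18 of the 40 Usp windows (45%) and in 21% of all windows. Usp31 held 1 GC box and 1 E-box, the latter 22 bases before its start. The window of Usp24, the other called gene, is not shown and held none of these motifs. An E-box was present in 4 Usp windows (10%, those of Usp4, Usp6nl, Usp16 and Usp31) and in 6.02% of all, and an ETS motif in 3 Usp windows (7.5%) and in 2.88% of all. No Usp window held a D-box or a cAMP response element, against 3.07% and 1.55% of all windows. The Usp windows were rich in G and C, with a median of 64.4% against 52.4% over all windows. These matches describe letters within 250 bases and no binding was measured.

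The other members are described by what their proteins do. Of the 3 genes for recycling of free and proteasome-bound ubiquitin none passed. Usp5, which takes apart unanchored ubiquitin chains, came closest. It ran over 10.06, 10.14 and 10.23 in undisturbed and 9.97, 10.03 and 10.10 in sleep-deprived animals, and all 8 of the latter were below the undisturbed mean. Usp5 was at -0.12 (SE 0.037) and missed the threshold in limma (adjusted p = 0.075). It passed in an unequal-variance test (adjusted p = 0.025), an exact rank-sum test (adjusted p = 0.027), after median centring (-0.13, adjusted p = 0.049) and among genes with a mean over 7 (adjusted p = 0.031). Usp14, the protease bound to the proteasome, was at -0.13 (SE 0.067, adjusted p = 0.32) with a wide spread in sleep-deprived animals (10.3 to 10.8), and Usp13, the relative of Usp5, was at -0.0058.

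Among the 12 genes for proteases of histones and DNA repair none passed and 9 had negative differences. Usp16, which removes ubiquitin from histone H2A, was at -0.13 (SE 0.045, limma adjusted p = 0.11). Usp7, which acts on MDM2 and p53, was at -0.11 (adjusted p = 0.19), with all 8 sleep-deprived animals below the undisturbed mean. Its 6 further probe sets had differences of -0.12, -0.12, -0.11, -0.0099, -0.15 and 0.066 in the order of their signal, none of which passed. Usp11 was at -0.11 (adjusted p = 0.25), Usp1, which acts on DNA repair proteins, at -0.091 (adjusted p = 0.25), and Usp22, the histone protease of the SAGA complex, at -0.078 (adjusted p = 0.44). Usp22 ran from 11.92 to 12.10 in undisturbed and from 11.71 to 12.09 in sleep-deprived animals, a wider spread in the latter. The other members of this group with a mean over 7 were Usp27x at -0.082, Usp36 at -0.043, Usp28 at -0.043, Usp3 at -0.030, Usp21 at 0.037 and Usp49 at 0.052, with adjusted p between 0.41 and 0.77.

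None of the 6 genes for proteases of endosomes and receptors passed, with 4 negative differences. Usp46, whose protein acts on AMPA-type glutamate receptors, ran from 11.05 to 11.29 in undisturbed and from 11.05 to 11.30 in sleep-deprived animals. The groups covered the same range, and Usp46 was at 0.016 (95% interval -0.069 to 0.10), with the sign turned after median centring (-0.0016). Usp12, its closest relative, was at -0.096 (SE 0.038, limma adjusted p = 0.17), and Usp8, which works on receptors sorted at endosomes, at 0.070 (adjusted p = 0.45). Usp33, which like its relative Usp20 acts on adrenergic receptors, was at -0.12 (SE 0.067, adjusted p = 0.37) with a spread of 9.80 to 10.3 in sleep-deprived animals. Usp10 was at -0.11 (adjusted p = 0.40) and Usp20 at -0.062 (adjusted p = 0.54), turning to 0.030 when its probe sets were averaged.

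Usp34 was the 1 called gene of 6 assigned to TGF-beta and Wnt signalling. In the same group Usp9x, a large X-linked member with roles in neuronal development, was at -0.068 (adjusted p = 0.43), and 6 of 6 further probe sets shared its sign. Usp4 and Usp15, close relatives that act on TGF-beta receptors and SMAD proteins, were at -0.038 and 0.044 (adjusted p = 0.64 and 0.72), and Usp47, a relative of Usp7, at -0.039 (adjusted p = 0.61). Usp9y, the Y-linked copy of Usp9x, had a signal of 4.03 to 4.47 in these males and was at -0.065 (adjusted p = 0.56).

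Of the 3 genes assigned to interferon and inflammation Usp31 was the called one. Usp18, which removes the ubiquitin-like protein ISG15, had a low and variable signal, 4.76 to 6.07 in undisturbed and 4.92 to 5.59 in sleep-deprived animals. One undisturbed animal, number 3, held the highest of these values, and Usp18 was at 0.080 (SE 0.14, adjusted p = 0.79). Usp25, a regulator of interleukin signalling, was at -0.12 (SE 0.075, adjusted p = 0.40), with groups that overlapped over most of their range (6.85 to 7.47 against 6.75 to 7.33). Usp30, the protease of the outer mitochondrial membrane that opposes mitophagy, had the smallest spread within groups of the 42 Usp genes with a mean over 7, an SD of 0.029. It lay between 8.52 and 8.64 in all 17 animals and was at -0.012 (95% interval -0.079 to 0.056). After quantile normalization or cyclic loess its sign turned (0.016 and 0.014). Usp2 had the largest spread of those 42 genes, with an SD of 0.18, against a median of 0.098 for the 42 genes and of 0.10 for all 9901 genes with a mean over 7.

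The endoplasmic reticulum protease gene Usp19 was at -0.15 (SE 0.051, limma adjusted p = 0.096), and it passed after median centring (-0.17, adjusted p = 0.049) and without sleep-deprived animal 2 (-0.18, adjusted p = 0.037). Its brightest probe set without a shared-sequence suffix turned the sign (0.014). Usp53, linked to cell junctions, was at -0.21 (SE 0.069, adjusted p = 0.097), the second lowest value of the family. Usp29, an imprinted gene, and Usp42 were at -0.15 and -0.094 (adjusted p = 0.25 and 0.24), and Usp29 turned to 0.022 with the mean of its probe sets. Usp39, a spliceosome protein that lacks protease activity, was at -0.060 (adjusted p = 0.46). Usp32, a membrane-bound member, was at -0.0034 (95% interval -0.087 to 0.080), turning to 0.034 and 0.036 after quantile normalization and cyclic loess. The other members with a mean over 7 and no group of their own were Usp37 at 0.080, Usp45 at 0.077, Usp54 at 0.038, Usp40 at 0.030 and Usp48 at -0.030 (adjusted p between 0.35 and 0.85). In Usp45 sleep-deprived animal 6 and undisturbed animal 1 held the highest values, 10.06 and 9.91, over group medians of 9.76 and 9.65.

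The 9 Usp genes with a mean signal under 7 had positive differences in 8 cases, and none passed. In that range 31.4% of all genes had negative differences. Usp17la, Usp26 and Usp44 had the lowest mean signals, 3.90, 4.00 and 4.05, with differences of 0.11, 0.086 and 0.061, and Usp22, Usp32 and Usp46 the highest, 12.0, 11.6 and 11.2. Signals of different probe sets do not rank the transcripts, and no detection call was used. Usp50 was at 0.17 (SE 0.052, limma adjusted p = 0.065), and it passed without undisturbed animal 3 or sleep-deprived animal 1 (adjusted p = 0.047 and 0.026), at a signal of 4.79. Usp46os2, Usp43 and Usp38 were at 0.052, 0.037 and 0.00079 (adjusted p = 0.80, 0.76 and 0.996). Among the 42 Usp genes with a mean over 7, 32 (76.2%) had negative differences, against 64.1% of all 9901 such genes. The median difference was -0.065 in these 42 and -0.029 in the 9901, and over all 51 members -0.043 against 0.0016 over all genes. The family median stayed negative after quantile normalization (-0.017, against 0.0048 over all genes), cyclic loess (-0.026, against 0.0025) and median centring (-0.060, against -0.016). With the most variable probe set of each gene it was -0.0099, against 0.0099 over all genes. These backgrounds were not matched for signal.

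**Figure D3:**
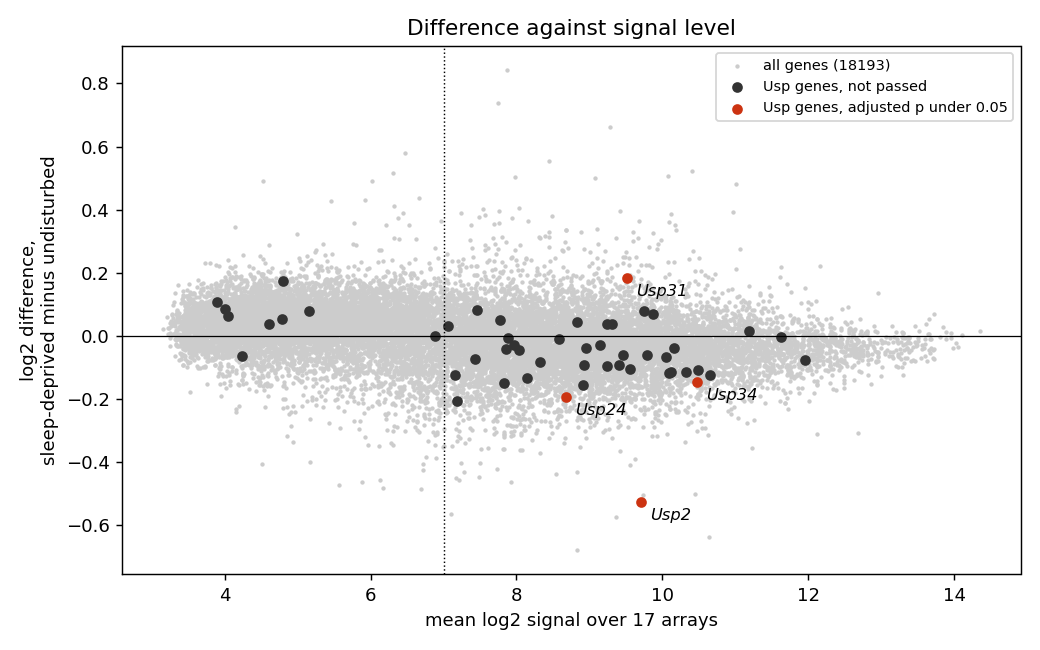
Log2 difference (sleep-deprived minus undisturbed) against mean log2 signal over the 17 arrays for 18193 genes (grey), the 47 Usp genes that did not pass (black) and the 4 that did (red); the dotted line marks a mean signal of 7. Right of that line the grey cloud sits slightly below 0, with a median of -0.029, and most Usp genes lie there.

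An unadjusted p under 0.05 was reached by 15 of the 51 Usp genes, 13 of them lower, against 18.6% of all genes in either direction and 10.9% lower. Besides the 4 called genes these were Usp50, Usp5, Usp19, Usp53, Usp16, Usp12, Usp7, Usp42, Usp29, Usp11 and Usp1. Among genes with a mean over 7 an unadjusted p under 0.05 was reached by 33.3% of the Usp genes and 22.9% of all. Bulk tissue cannot tell fewer cells of a type from less RNA per cell.

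At the level of probe sets 6 of the 128 Usp probe sets fell (4.69%), against 1.23% of all 45037, and 0 rose, against 0.584%. At an unadjusted p under 0.05 limma gave 10 Usp probe sets higher (7.81%) and 27 lower (21.1%), against 7.31% and 8.02% of all probe sets. The brightest Usp31 probe set was at an adjusted p of 0.054 over all probe sets. The groups did not overlap in 6 Usp probe sets (4.69%), against 0.486% of all. All 45037 include 9160 probe sets without a gene symbol and 932 with several. They were not matched to the Usp probe sets for signal, with which the share of lower calls varied among genes. Usp2 contributed 2 of the called probe sets and Usp24 1. For the Usp24 probe set there were 11 arrays whose removal, 1 at a time, ended the call (adjusted p up to 0.083).

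Usp3 and Usp6nl fell through dimmer probe sets and not through their brightest. Usp3, a protease of histone H2A, had a difference of -0.030 in its brightest probe set (mean 7.97), where the groups overlapped. Its probe set with a mean of 7.45 ran from 7.47 to 7.65 in undisturbed and from 7.24 to 7.43 in sleep-deprived animals. Those groups did not overlap, and the probe set fell by 0.19 (SE 0.040, limma adjusted p over all probe sets = 0.011). Another probe set annotated with the same transcript record fell by 0.19 (adjusted p = 0.029), and there were 7 arrays whose removal, 1 at a time, ended this call (adjusted p up to 0.064). Neither was shown to differ from the brightest (adjusted p of the difference = 0.19 and 0.17).

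Usp6nl had the smallest p among Usp probe sets. Its probe set with a mean of 6.99 ran from 6.97 to 7.33 in undisturbed animals and lay between 6.77 and 6.86 in all 8 sleep-deprived animals, a narrow band below every undisturbed animal. It fell from 7.13 ± 0.11 (SD, n = 9) to 6.82 ± 0.031 (SD, n = 8), by 0.31 (SE 0.046, limma adjusted p over all probe sets = 0.00084). It kept the call without any 1 array (adjusted p at most 0.0025). The brighter Usp6nl probe sets were at -0.074 and -0.066 and did not pass (adjusted p = 0.53 and 0.54), and the contrast with the brightest missed the threshold (-0.23, SE 0.064, adjusted p = 0.078). Over the 77 further Usp probe sets 0 differed from the brightest of their gene, against 1.3% of 16752 such pairs of all genes (at an unadjusted p under 0.05 in limma, 15 of the 77, 19.5%, against 14% of all pairs). As a gene Usp6nl passed in limma with the mean of its probe sets (-0.15, adjusted p = 0.017) and with the most variable one (-0.31, adjusted p = 0.00097).

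**Figure D4:**
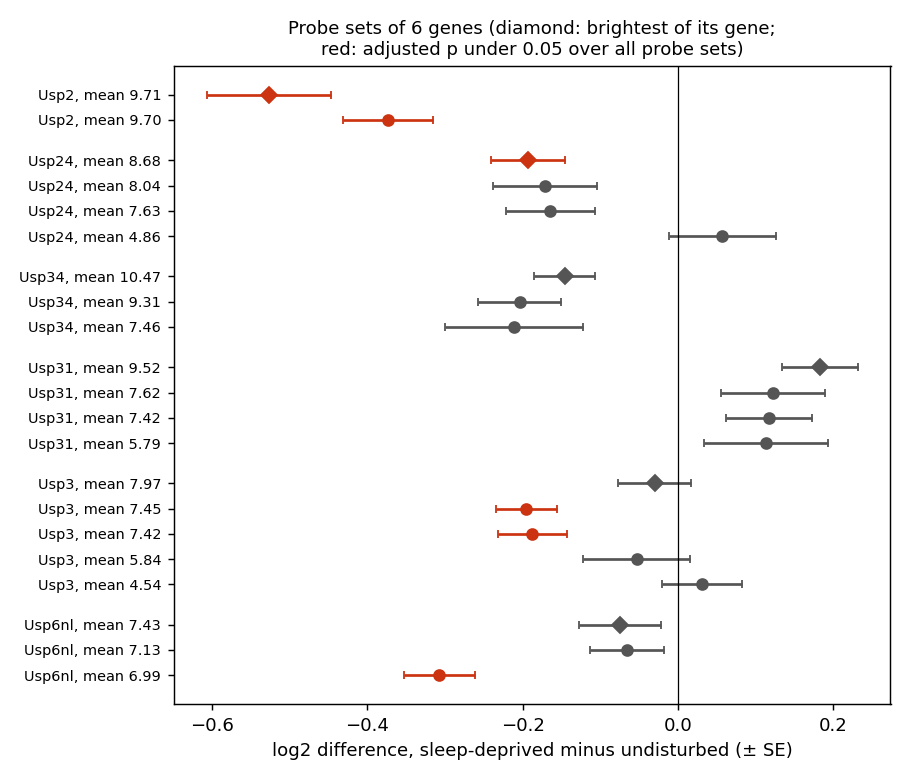
Log2 difference (sleep-deprived minus undisturbed, bars of 1 moderated standard error) for every probe set of 6 Usp genes, labelled by mean log2 signal; diamonds mark the brightest probe set of a gene and red an adjusted p under 0.05 over all 45037 probe sets. Both Usp2 probe sets lie at or below -0.37, the red Usp3 and Usp6nl probe sets lie apart from the diamond of their gene, and the 4 Usp31 probe sets lie between 0.11 and 0.18.

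Within groups Usp2 varied together with neuronal markers and with Usp10, and by r alone also with Usp11 and Usp20. Deviations from the group means were correlated over the 17 animals between Usp2 and each of 41 other Usp genes with a mean over 7 and 2 marker lists, with p-values from permutation within groups adjusted over these 43 relations. Usp10 had the highest value among Usp genes (r = 0.71, adjusted permutation p = 0.032; rho = 0.73, adjusted permutation p = 0.036), followed by Usp11 (r = 0.67, adjusted p = 0.046; rho = 0.59, adjusted p = 0.11; permutation) and Usp20 (r = 0.67, adjusted p = 0.046; rho = 0.57, adjusted p = 0.11; permutation). Without the 2 animals farthest from the Usp2 median, sleep-deprived 5 and undisturbed 1, these fell to r = 0.54, 0.51 and 0.48. In sleep-deprived and undisturbed animals taken apart r was 0.59 and 0.81 for Usp10. It was 0.40 and 0.86 for Usp11, and 0.83 and 0.56 for Usp20. The lowest were Usp53 (r = -0.30), Usp39 (-0.18) and Usp6nl (-0.13), with adjusted permutation p = 0.49, 0.65 and 0.77 (rho = -0.18, -0.13 and 0.083, adjusted permutation p = 0.75, 0.80 and 0.91). Without the 2 animals these were r = -0.16, -0.40 and 0.42, so the sign for Usp6nl turned. Of the 41 relations 33 were positive, and the share among all genes was not computed, so this count is not set apart from the background.

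The mean of 5 neuronal markers had the highest r with Usp2 of the 43 (r = 0.79, adjusted permutation p = 0.0095; rho = 0.75, adjusted permutation p = 0.027; r = 0.71 without those 2 animals). This held in sleep-deprived (r = 0.78) and undisturbed animals (r = 0.85) taken apart. The mean of 10 markers of hippocampal neurons gave r = 0.75 (adjusted permutation p = 0.020; rho = 0.72, adjusted permutation p = 0.036; r = 0.71 without the 2 animals). The neuronal marker mean ran from 12.34 to 12.46 in undisturbed and from 12.24 to 12.40 in sleep-deprived animals, and 0 of the 5 passed. The 2 lists tested were those with the highest r with Usp2 of all marker lists, and the adjustment does not cover that choice. The other marker lists were not among the 43 relations and were given no p. Their r with Usp2 was negative for blood (-0.63), endothelium (-0.46), microglia (-0.42), choroid plexus (-0.35) and thalamus (-0.14). It was positive for astrocytes (0.17) and oligodendrocytes (0.24). For blood only 2 of 5 listed markers were measured, Alas2 and Hba-a1, with mean signals of 6.40 and 4.33. The part of neuronal content, or of these other tissues, in the Usp2 difference was not tested.

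Few genes of the wider pathway passed. Of 32 measured deubiquitinase genes of other families 1 rose, 1 fell and 30 did not pass, near the backgrounds of 1.25% and 2.73%, with a median of -0.032. Otub2, of the ovarian tumour family, rose by 0.25 (SE 0.041, limma adjusted p = 0.0013) with groups that did not overlap, and Otud7a fell by 0.18 (adjusted p = 0.020). Among 28 ubiquitin-conjugating enzyme genes Ube2g2 rose (0.15, adjusted p = 0.047), and among 24 HECT ligase genes Hecw2 fell (-0.48, adjusted p = 0.00098). Uba6, the 1 ubiquitin or activating enzyme gene read through a single symbol, was at 0.14 (adjusted p = 0.23).

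Of 28 genes for substrates and partners of Usp proteins 3 fell and 1 rose, where 2.73% of all genes were lower and 1.25% higher. Eny2, a subunit of the module that holds Usp22, fell by 0.24 (SE 0.053, limma adjusted p = 0.014), and Atxn7l1, a relative of that module's Atxn7, rose by 0.24 (adjusted p = 0.040). Ifnar2, the interferon receptor chain that recruits Usp18, fell by 0.20 (adjusted p = 0.012), with groups that did not overlap. Fasn, the fatty acid synthase gene whose protein is a Usp2 substrate, fell by 0.20 (adjusted p = 0.045). The median of the 28 was -0.0040. Of 22 clock genes 3 fell and 2 rose, beside the same 2.73% and 1.25% of all genes, led by Dbp (-0.50, adjusted p = 0.00031) and Nfil3 (0.35, adjusted p = 0.0022), and by Tef (0.22) and Ciart (-0.22).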

How the data were processed

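Hippocampal RNA of 17 mice was read on Affymetrix arrays, 1 animal per array. The deposited values are log2 signals per probe set; the authors used RMA and the affy package, per the submitters' processing notes, with no version or order of steps stated. The values ran from 2.90 to 14.8, from which the log base was taken. RMA brings arrays to a similar distribution (array medians 6.14 to 6.22), which can hide a shift common to most genes. Arrays have no read depth, and their number limits the precision.

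Control probe sets (64 of 45101) were left out. Genes were fitted in limma 3.58.1 (R 4.3.3) with group means, lmFit and eBayes, with Benjamini-Hochberg adjustment over all 18193 genes or 45037 probe sets and a threshold of 0.05. The symbol check through Entrez identifiers changed 0 symbols. Further probe sets were fitted as per-array differences from the brightest. The fit was tested on simulated data.

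Values are given for called Usp genes, those with an unadjusted p under 0.05 or a further probe set called, the 3 highest and lowest by signal and by correlation with Usp2, 10 Usp genes by name, and up to 4 called members of each pathway list. The members and lists were chosen with earlier results of these data known. Promoter sequences and names come from RefSeq tables of GRCm38.p6. Groups and replicate numbers came from the sample titles; the check of same-numbered animals did not meet the rule for pairing (every pair's correlation over 0.1). Alternatives covered scaling, probe set rule, filters, variance model, array weights, a replicate block, covariates, tests, threshold and single arrays left out. Probe-set calls without 1 array and the 12 arrays with a choroid plexus marker mean under 6.5 were added after seeing the data. The analysis plan held the correlations of other Usp genes with Usp2 as r without p. Their permutation p-values, rho and the marker lists were not in that plan.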

Additional observations from a re-analysis of the deposited data

Results flagged for a closer look

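In 60 groups of arrays (30 Usp genes, 2 groups each) 3 animals stood far from the rest of their group by Dixon's ratio, where chance alone flags about 1 in 20 groups. Usp16 was 7.87 in sleep-deprived animal 2, with the next animal at 8.04. Usp16 was also 8.37 in undisturbed animal 4, with the next at 8.24. Usp8 was 9.72 in sleep-deprived animal 2, with the next at 9.89. Neither gene passed the test with that animal or without it.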

How the results depend on the processing

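The count of 3 Usp genes lower and 1 higher became 5 and 0 after median centring and 1 and 0 at an adjusted p of 0.01 or in the 12 arrays with few choroid plexus markers. The higher count was 0 with averaged probe sets, the most variable probe set and the replicate block. Under the other settings both counts stayed within 1.5 times. The genes behind a similar count could differ. Those lower were Usp2, Usp34 and Usp6nl with averaged probe sets, and Usp2 and Usp6nl with the most variable probe set. Probe sets lower were 3 instead of 6 at an adjusted p of 0.01 and in the 12 arrays, and probe sets higher were 1 instead of 0 after quantile normalization, cyclic loess and with a trended, robust variance. Leaving out 1 array gave 2 to 4 genes lower, 0 to 2 higher, 4 to 7 probe sets lower and 0 to 1 higher. Replicate numbers were shared by 8 pairs, of which 3 correlated over 0.1 (from -0.16 to 0.39) and 1 sleep-deprived animal correlated best with its own number. With the numbers as a replicate block 2 genes were lower, Usp2 at -0.55 (adjusted p = 0.00047) and Usp24 remaining called, while Usp34 (-0.15, adjusted p = 0.062) and Usp31 (0.16, adjusted p = 0.076) did not pass. Undisturbed animal 9 has no partner and does not count in the block, and leaving it out alone already ended the Usp31 call (adjusted p = 0.054).

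Alternatives were run for the 30 Usp genes chosen by the rule for named genes, and among these signs turned in genes that did not pass. After quantile normalization these were Usp30 (0.016) and Usp32 (0.034), after cyclic loess Usp30 (0.014) and Usp32 (0.036), and after median centring Usp46 (-0.0016). Averaging all probe sets turned Usp29 (0.022), Usp20 (0.030) and Usp46 (-0.015). With the most variable probe set Usp19 (0.014), Usp12 (0.042), Usp29 (0.19), Usp14 (0.044), Usp20 (0.015) and Usp46 (-0.046) turned, and with probe sets free of a suffix Usp19 (0.014). Usp32 was at 0.0068 with array weights, 0.0020 in the 12 arrays and -0.017 to 0.020 without 1 array. The cause was not tested. The number of arrays and compressed differences of dim probe sets limit what can be seen, and a gene that missed the threshold was not shown to be the same in both groups.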
